A study of Rattus norvegicus with 3 samples.

Results

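The claudins Cldn1, Cldn2, Cldn3, Cldn4, Cldn5, Cldn7, Cldn8, Cldn10, Cldn16 and Cldn19 were followed in rat kidney RNA. They were chosen by gene symbol, through the accession or symbol that the scanner files give each probe, and not by their values. Earlier results of these data were, however, known when the members were chosen. All 10 genes were found, on 12 probes and 21 spots, among 17944 named genes and 30367 probes. Every animal was a male spontaneously hypertensive rat (SHR, Wistar background) of 8 to 10 weeks, and the series asks how kidney transcripts differ after a protein hydrolysate of blue mussel (HBMP) is given by mouth. Control rats received water, low-dose rats 10 mg/kg/day of HBMP and high-dose rats 20 mg/kg/day, each in about 3 mL for 28 days, with 10 rats in a group. Kidney RNA of 4 rats per group was mixed in equal amounts, labelled with a single dye (Cy3) and hybridised to 1 array per group. There was no normotensive group and no array of a single animal. No test was therefore possible, every value describes 1 pool, and both doses were set against the same control array.

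Claudins are membrane proteins with a pair of extracellular loops that join neighbouring epithelial cells at the tight junction. Some close the space between cells, others form pores that pass cations, anions or water, and the set of claudins in a nephron segment gives that segment its paracellular permeability. In rodent kidney, Cldn2 is known from the proximal tubule and the thin descending limb, Cldn10, Cldn16 and Cldn19 from the thick ascending limb, and Cldn3, Cldn4, Cldn7 and Cldn8 from the distal nephron and collecting duct. Cldn1 marks the parietal cells of Bowman's capsule and Cldn5 the endothelium.

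The 3 claudins of the thick ascending limb are shown first by their upstream sequence, because 2 of them differed from the third in direction at the high dose. Sequences were those of RefSeq on the rat assembly GRCr8, which held 8 of the 10 members, while Cldn2 and Cldn4 were not among them. Each line gives the 250 bases before the listed transcription start, 5′ to 3′ on the strand of the gene. Capitals mark matches on either strand to GGGCGG (the GC box bound by Sp1), TGGAAA (the core of the tonicity element), GTTAAT (an HNF1 half-site) or AACNGGTT (a grainyhead-like site). The Cldn10 window lies at chr15:102269608-102269857 on the plus strand, the Cldn16 window at chr11:87814397-87814646 on the minus strand, and the Cldn19 window at chr5:138148325-138148574 on the plus strand.
Cldn10: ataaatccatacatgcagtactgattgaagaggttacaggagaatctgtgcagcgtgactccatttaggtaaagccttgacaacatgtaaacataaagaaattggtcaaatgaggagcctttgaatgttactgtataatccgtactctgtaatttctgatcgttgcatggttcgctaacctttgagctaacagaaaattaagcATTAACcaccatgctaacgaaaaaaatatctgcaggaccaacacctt
Cldn16: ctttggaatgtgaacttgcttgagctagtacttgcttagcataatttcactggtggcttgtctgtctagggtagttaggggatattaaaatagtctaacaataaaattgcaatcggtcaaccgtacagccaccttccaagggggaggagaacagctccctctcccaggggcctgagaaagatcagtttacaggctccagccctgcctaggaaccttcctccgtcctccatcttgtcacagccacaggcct
Cldn19: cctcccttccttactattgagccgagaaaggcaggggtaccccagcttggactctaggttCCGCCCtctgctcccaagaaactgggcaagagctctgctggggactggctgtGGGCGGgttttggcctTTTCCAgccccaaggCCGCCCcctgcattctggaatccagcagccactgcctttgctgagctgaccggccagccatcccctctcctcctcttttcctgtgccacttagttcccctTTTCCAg

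The Cldn19 window held 3 GC boxes, 190, 138 and 107 bases before the start, and 2 tonicity cores, 122 and 7 bases before it. The Cldn10 window held 1 HNF1 half-site, 47 bases before the start, and the Cldn16 window held none of the 4 motifs. No match overlapped another. Among 27457 RefSeq upstream windows of this length, 32.4% held a GC box, 19.5% a tonicity core, 6.46% an HNF1 half-site and 1.65% the grainyhead-like site, which none of the 8 claudin windows contained. Base composition also differed: G and C made up 38.0% of the Cldn10 window, 49.2% of the Cldn16 window and 60.0% of the Cldn19 window, against a median of 52% over all windows. Cldn10 is transcribed from alternative first exons, and the table gives 1 start. A letter match describes the window only.

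Signal was read as net intensity in arbitrary units, and the arrays were brought to a common 75th percentile. A signal-to-noise ratio of 3, reached by 50% or more of the spots of a probe, set the limit for above background. Between 50.6% and 54.7% of probes passed it on an array. Markers of kidney segments were present: 18 of 18 proximal tubule genes, 10 of 11 thick ascending limb genes and 11 of 11 principal cell genes stood above background on all 3 arrays. For the distal convoluted and connecting tubule it was 7 of 9, and for podocyte and parietal cells 9 of 11. Lists of other cells also passed, with 9 of 10 fibroblast, 10 of 12 macrophage and 10 of 13 adipocyte markers, so presence alone does not single out kidney. Technical error was taken from probes printed on 10 spots: the SD of the log2 difference between 2 arrays over such spots, at the brightness of each claudin other than Cldn1, was between 0.06 and 0.19. It covers printing and scanning, not the rats or the labelling. Because the arrays shared a single slide, group cannot be told apart from slide position. Scaling to 6 spike-in controls in place of the 75th percentile raised every log2 difference by 0.28 for the low dose against control, 0.34 for the high dose against control and 0.06 between doses. Directions given here are therefore relative to the 75th percentile over all probes. Against control, the median of all measured genes lay below 0 on that scale, at -0.11 for the low dose and -0.05 for the high dose.

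**Figure D1:**
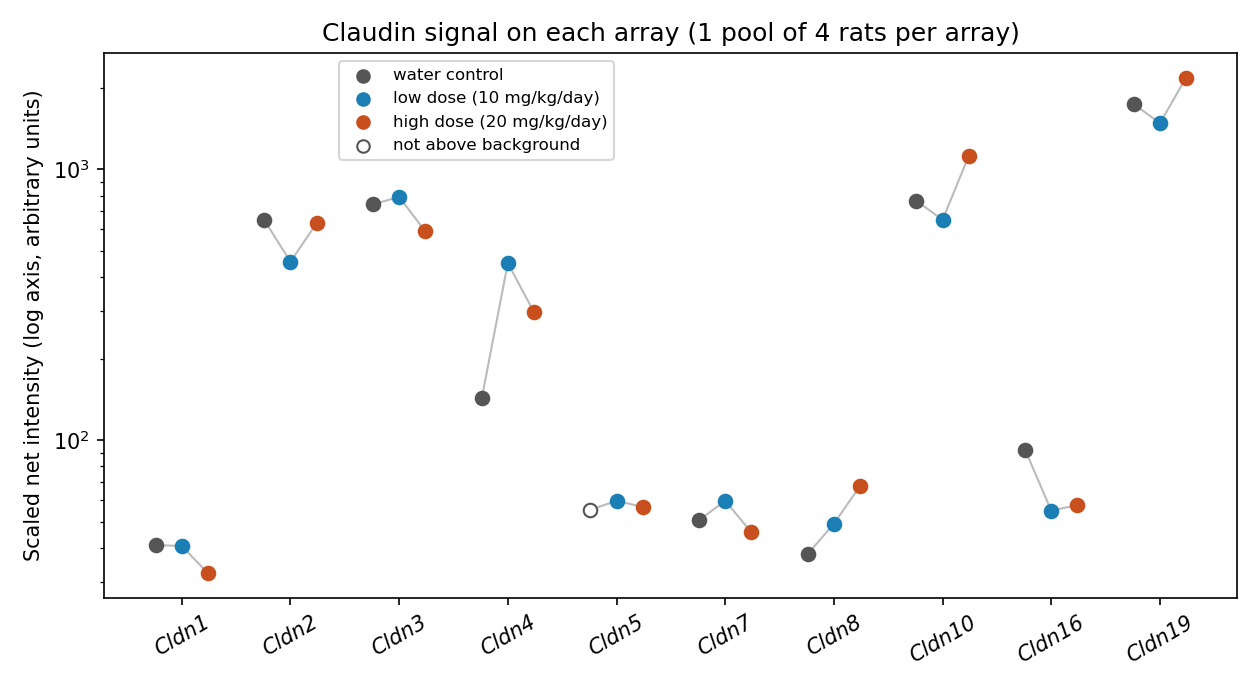
Scaled net intensity (log axis, arbitrary units) of the probe used for each claudin on the water control, low-dose and high-dose arrays, with 1 point per array and an open point where the probe was not above background. Cldn4 was higher on both dose arrays than on the control array, Cldn16 was lower on both, and Cldn10 and Cldn19 were lowest on the low-dose and highest on the high-dose array. Heights of different probes cannot be compared.

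Cldn4 was the only member past the 2-fold threshold at either dose. At the low dose, 1 of 9 measured members was at least 2-fold higher than control, where 2.48% of all 9747 measured genes were (background), and none was 2-fold lower (background 0.739%). At the high dose, 1 of 9 was at least 2-fold higher (background 0.848% of 9910 genes) and none 2-fold lower (background 0.151%). Between the doses, 0 of 10 members differed by 2-fold in either direction, where 1.96% of 10147 genes did (background). A count of 1 is a single gene and says little about the family as a whole. Cldn5 was not measured against control, because its control spot was not above background.

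As a group the claudins had no common direction under the 75th percentile scaling. At the low dose 4 members were above and 5 below control, with a median log2 difference of -0.01, beside a median of -0.11 over all genes, of which 34.6% were above control. At the high dose 4 were above and 5 below, with a median of -0.04 beside -0.05 over all genes, of which 42.5% were above control. With spike-in scaling the medians of the members became 0.27 at the low dose and 0.30 at the high dose, and those of all genes 0.17 and 0.29, and 7 of the 9 members then lay above control at each dose. Within the family the spread was wide: members ran over a range of 2.40 at the low dose and 1.73 at the high dose. A difference of more than 2 technical standard errors (the SD over the square root of the number of spots) was seen in 5 members at the low dose (Cldn2, Cldn4, Cldn10, Cldn16 and Cldn19), in 7 at the high dose (Cldn1, Cldn3, Cldn4, Cldn8, Cldn10, Cldn16 and Cldn19) and in 8 between the doses (all but Cldn5 and Cldn16). Of all measured genes, 47.8% passed this limit at the low dose, 44.9% at the high dose and 54.8% between the doses, so passing it does not set a claudin apart.

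**Figure D2:**
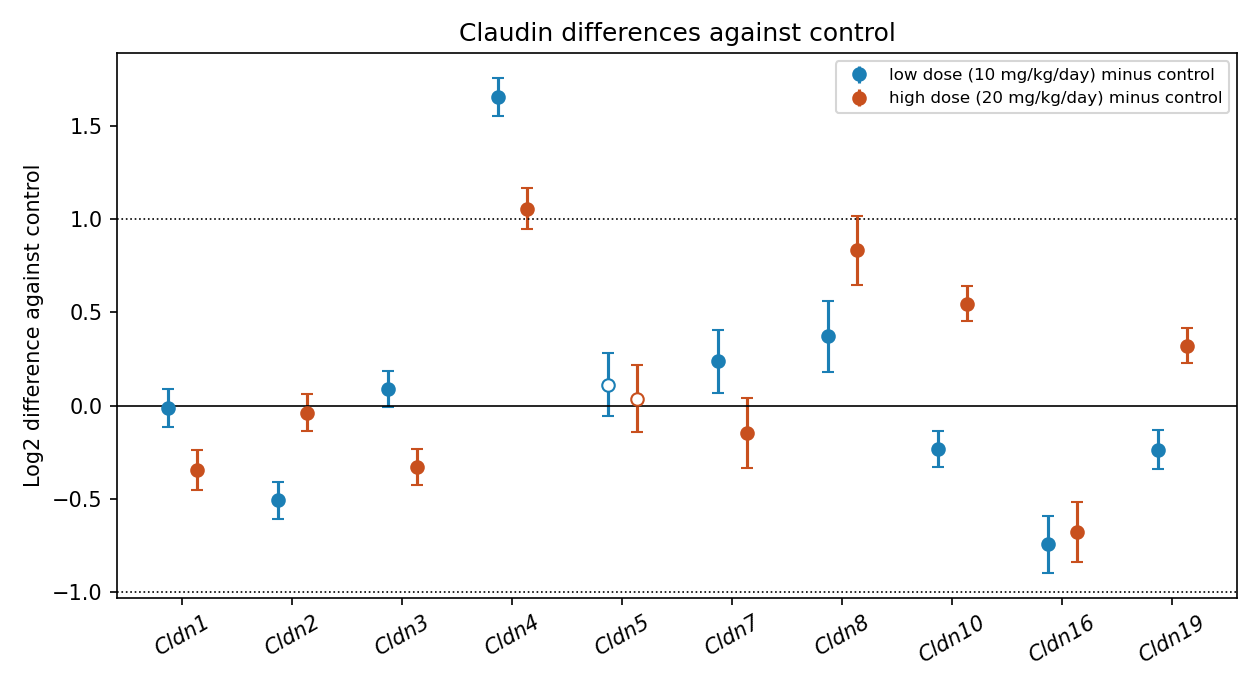
Log2 difference of each claudin against the water control on the low-dose and high-dose arrays, with bars of 1 technical standard error over spots and dotted lines at 2-fold. Open points mark Cldn5, which was not above background in control. Cldn4 lies past 2-fold at both doses (1.66 and 1.06), and Cldn16 is the lowest member at both (-0.75 and -0.68). With spike-in scaling all points move up, by 0.28 and 0.34, and the low-dose values of Cldn1, Cldn10 and Cldn19 and the high-dose values of Cldn2, Cldn3 and Cldn7 then lie above 0.

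Of the claudins of the distal nephron and collecting duct, Cldn4, which takes part in the paracellular chloride path of the collecting duct, differed most. Its scaled intensity was 143 in control, 450 at the low dose and 297 at the high dose. Both dose arrays were thus above the control array, and the low dose was above the high dose. The log2 difference against control was 1.66 at the low dose (3.15-fold, technical SD 0.10) and 1.06 at the high dose (2.08-fold, technical SD 0.11), and the high dose was lower than the low dose by -0.60 (technical SD 0.07). Cldn4 ranked 73 of 9747 measured genes from the top at the low dose and 67 of 9910 at the high dose. The 2-fold excess at both doses was shared with 0.601% of the 9656 genes above background on all arrays. Under 12 alternative processings, some of which could not change the value of Cldn4, the low-dose difference stayed between 1.34 and 1.94. The high-dose difference ran from 0.83 with normexp background correction, which is under 2-fold, to 1.40.

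Markers of the cell types that can hold Cldn4 were read beside it. Principal cells, which take up water and sodium in the collecting duct, had 11 of 11 markers above background, with a summed level of 23695 in control, 44384 at the low dose and 30564 at the high dose, of which the water channel Aqp2 alone held 12309, 30915 and 18798. At the low dose 7 markers were above and 4 below control (median 0.73, or 0.31 with normexp), and at the high dose 6 were above and 5 below (median 0.56, or 0.10 with normexp). Their water channel Aqp2 had a log2 difference of 1.33 at the low dose and 0.61 at the high dose, and Fxyd4, a subunit of the sodium pump, 1.33 and 0.94. Hsd11b2, the enzyme that keeps glucocorticoids from the mineralocorticoid receptor, was the lowest at -0.45 and -0.52, and Scnn1g, a sodium channel subunit, gave -0.28 and -0.37. Urothelium also expresses Cldn4, and 5 of its 14 markers on the array were above background at both doses but not in control. Upk3a, an uroplakin of the urothelial plaque, was at least 19.5-fold higher than control at the low dose and at least 12.0-fold higher at the high dose. For Upk2 these bounds were 10.2-fold and 7.68-fold, and for Fxyd3 17.2-fold and 7.01-fold. Krt15, a keratin, had bounds of 11.5-fold and 4.11-fold, and Sprr1a of 13.2-fold and 7.64-fold. Upk1a, which was measured on every array, differed by 2.10 and 1.54 on the log2 scale. Of the 5 markers measured on every array, 4 were above and 1 below control at the low dose (median 0.38). At the high dose 3 were above and 2 below (median 0.17). Krt14 gave 0.90 and 0.58, Krt19 0.38 and -0.01, Krt7 0.20 and -0.03, and Upk1b -0.06 and 0.17. The 5 urothelial markers above background on all arrays summed to 10549 in control, 12446 at the low dose and 10582 at the high dose, a sum made up mainly of Krt7, and 9 of 14 markers were not above background in control, 4 at the low and 4 at the high dose. Krt5, Krt20, Gsdmc and Upk3b were those not above background on any array. Thin limb markers, whose ascending part in rodents also holds Cldn4, had 5 of 6 genes above background on all arrays and summed to 17549, 14304 and 17118 in control, low and high dose. At both doses 3 of these 5 were above and 2 below control: Akr1b1, aldose reductase, differed by 3.22 and 2.18 and Slc14a2, a urea transporter, by 1.68 and 1.67, while the water channel Aqp1 gave -0.40 and -0.08 and Cryab, a small heat shock protein, -0.37 and -0.08. The sum, which rests mainly on Cryab and Aqp1, was thus lowest at the low dose, where Cldn4 was highest. The part of these cell types in the Cldn4 result was not tested. RNA came from whole kidney tissue, so a different share of cells of a type and a different amount of RNA per cell cannot be told apart.

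Of the non-epithelial lists, those of adipocytes, macrophages and fibroblasts moved too, more at the low dose than at the high dose by the medians. The endothelial list had medians of -0.01 at the low dose and 0.02 at the high dose. Adipocyte markers had a median log2 difference of 2.24 at the low dose and 1.26 at the high dose, and their summed level over 10 genes above background on all arrays was 1596 in control, 9751 at the low dose and 4879 at the high dose. Macrophage markers, 10 in number, summed to 4648 in control, 9446 at the low dose and 4642 at the high dose, and 9 fibroblast and matrix markers to 4467, 14348 and 4962 in the same order. At the low and high dose the median was 1.05 and 0.13 for macrophage markers, and 1.42 and 0.32 for fibroblast and matrix markers. Of the adipocyte, macrophage and matrix lists, 3 of 13, 2 of 12 and 1 of 10 genes were not above background in control. Their part in the claudin values was not tested.

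Cldn8, a chloride-path partner of Cldn4 that brings it to the junction in mouse collecting duct cells, had intensities of 38.0 in control, 49.2 at the low dose and 67.6 at the high dose. Unlike Cldn4 it was highest at the high dose. Its log2 difference was 0.37 at the low dose (technical SD 0.19) and 0.83 at the high dose (1.78-fold, technical SD 0.19), above 98.6% of measured genes, and 0.46 between the doses (technical SD 0.14). The probe was dim, with a signal-to-noise ratio of 4.25 in control. The high-dose difference ran from 0.30 with normexp to 1.17 with spike-in scaling, and it passed 2-fold in the authors' deposited table of log2 values (1.03).

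Cldn3, a sealing claudin, had intensities of 743 in control, 790 at the low dose and 591 at the high dose. Its lowest value was at the high dose, with a log2 difference of -0.33 against control (technical SD 0.10), or 0.01 with spike-in scaling, and of -0.42 against the low dose (technical SD 0.06). At the low dose it stood within 1 technical SD of control (0.09). Cldn3 and Cldn4 are neighbours on chromosome 12, with 0 protein-coding genes between them in RefSeq, and the ratio of Cldn4 to Cldn3, which a single scaling factor per array does not alter, was 1.57 higher than control on the log2 scale at the low dose and 1.39 higher at the high dose.

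Cldn7, which is found on the basolateral membrane as well as at the junction, had 50.7, 59.8 and 45.7 units in control, low dose and high dose. Neither dose differed from control by more than 2 technical SDs (0.24 at the low dose, SD 0.17, and -0.15 at the high dose, SD 0.19, or 0.19 with spike-in scaling). The high dose was below the low dose by -0.39 (SD 0.15). As ratios, which no single factor per array alters, Cldn8 over Cldn7 was 0.98 higher than control at the high dose (SD 0.26, and 0.47 with normexp), while Cldn4 over Cldn8 was 1.29 higher at the low dose (SD 0.22) and 0.23 higher at the high dose (SD 0.22, and -0.03 with the net median of pixels). Under percentile scaling the 4 claudins of the collecting duct held 3 different orders of the arrays. With spike-in scaling Cldn3 and Cldn7 took the order of Cldn4. The log2 differences at the low and high dose were then 0.37 and 0.01 for Cldn3 and 0.52 and 0.19 for Cldn7. Those of Cldn4 were 1.94 and 1.40, and Cldn8 kept its own order (0.65 and 1.17). The orders of Cldn3 and Cldn7 also rest on differences within 2 technical SDs.

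Of the claudins known from the thick ascending limb, Cldn10 and Cldn19 were arranged in the same way and Cldn16 in another. Cldn10, whose isoform in this segment forms a pore for sodium, had intensities of 765 in control, 651 at the low dose and 1117 at the high dose. It was lowest at the low and highest at the high dose. Its log2 difference was -0.23 at the low dose (technical SD 0.10), or 0.05 with spike-in scaling, and 0.55 at the high dose (1.46-fold, SD 0.09). The high dose was 1.72-fold above the low dose (0.78 on the log2 scale, SD 0.06), above 98.4% of measured genes, and under the alternatives this difference stayed between 0.75 and 0.84. Which Cldn10 isoform the probe reads was not determined. As RNA came from whole kidney tissue, the Cldn10 values cannot be assigned to the thick ascending limb alone.

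Cldn19, which with Cldn16 forms the paracellular path for magnesium and calcium, had 1742, 1478 and 2177 units in control, low and high dose on one probe. The other probe read 245, 213 and 326 units. Both probes gave the same order of arrays as Cldn10. The log2 difference at the low dose was -0.24 (SD 0.10), or 0.05 with spike-in scaling, and -0.20 on the other probe. At the high dose it was 0.32 (SD 0.09) against control, with 0.41 on the other probe. Between the doses it was 0.56 (1.47-fold, SD 0.06), with 0.62 on the other probe.

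Cldn16, the other subunit of that path, read 92.1 in control, 54.9 at the low dose and 57.6 at the high dose. Both doses lay below control and close to each other. It was 1.68-fold lower than control at the low dose (-0.75, SD 0.15) and 1.60-fold lower at the high dose (-0.68, SD 0.16), differences below which only 2.14% and 1.96% of measured genes lay. The doses differed by 0.07 (SD 0.14). Under the alternatives the difference was -0.83 to -0.45 at the low dose and -0.79 to -0.34 at the high dose, and it was below 0 in each.

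The ratio of Cldn19 to Cldn16, unaltered by a single factor per array, was higher than control by 0.51 on the log2 scale at the low dose (SD 0.19) and by 1.00 at the high dose (SD 0.19). With normexp these were 0.27 and 0.83. For Cldn10 over Cldn16 the values were 0.51 (SD 0.18) and 1.22 (SD 0.19), with 0.28 and 1.02 under normexp and 0.30 and 1.06 when each spot was divided by the median of its block of the array. Cldn19 over Cldn10 stood at -0.00 (SD 0.14) at the low dose and -0.23 (SD 0.13) at the high dose, or 0.23 and -0.04 with the block medians.

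Under percentile scaling, 2 of 9 members (22.2%, Cldn10 and Cldn19) were below control at the low dose and above it at the high dose. This pattern was seen in 19.0% of 9656 genes, so the count over the family was near the background. Among the 10 measured markers of the thick ascending limb the pattern was seen in 6 (60%), and among 12 intercalated cell markers in 7 (58.3%). Which members show the pattern depends on the scaling. With spike-in scaling Cldn10 (0.05 at the low dose, 0.89 at the high dose) and Cldn19 (0.05 and 0.66) left it. Cldn2 (-0.23 and 0.30) then entered it. The pattern was not counted in the marker lists or over all genes with spike-in scaling. The median of the thick ascending limb list was -0.56 for the low dose and 0.12 for the high dose, or -0.28 and 0.46 with spike-in scaling. Its summed level was 74118 in control, 52647 at the low dose and 65065 at the high dose, with Nos1 the 1 marker of 11 not above background on any array. Slc12a1, the sodium-potassium-chloride cotransporter of the segment, read 5114, 2704 and 5375 units in control, low and high dose. Under percentile scaling that was the order of Cldn10 and Cldn19. Ppp1r1b differed by 1.44 between the high and the low dose, past 2-fold. The part of the segment's share in these claudin values was not tested.

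**Figure D3:**
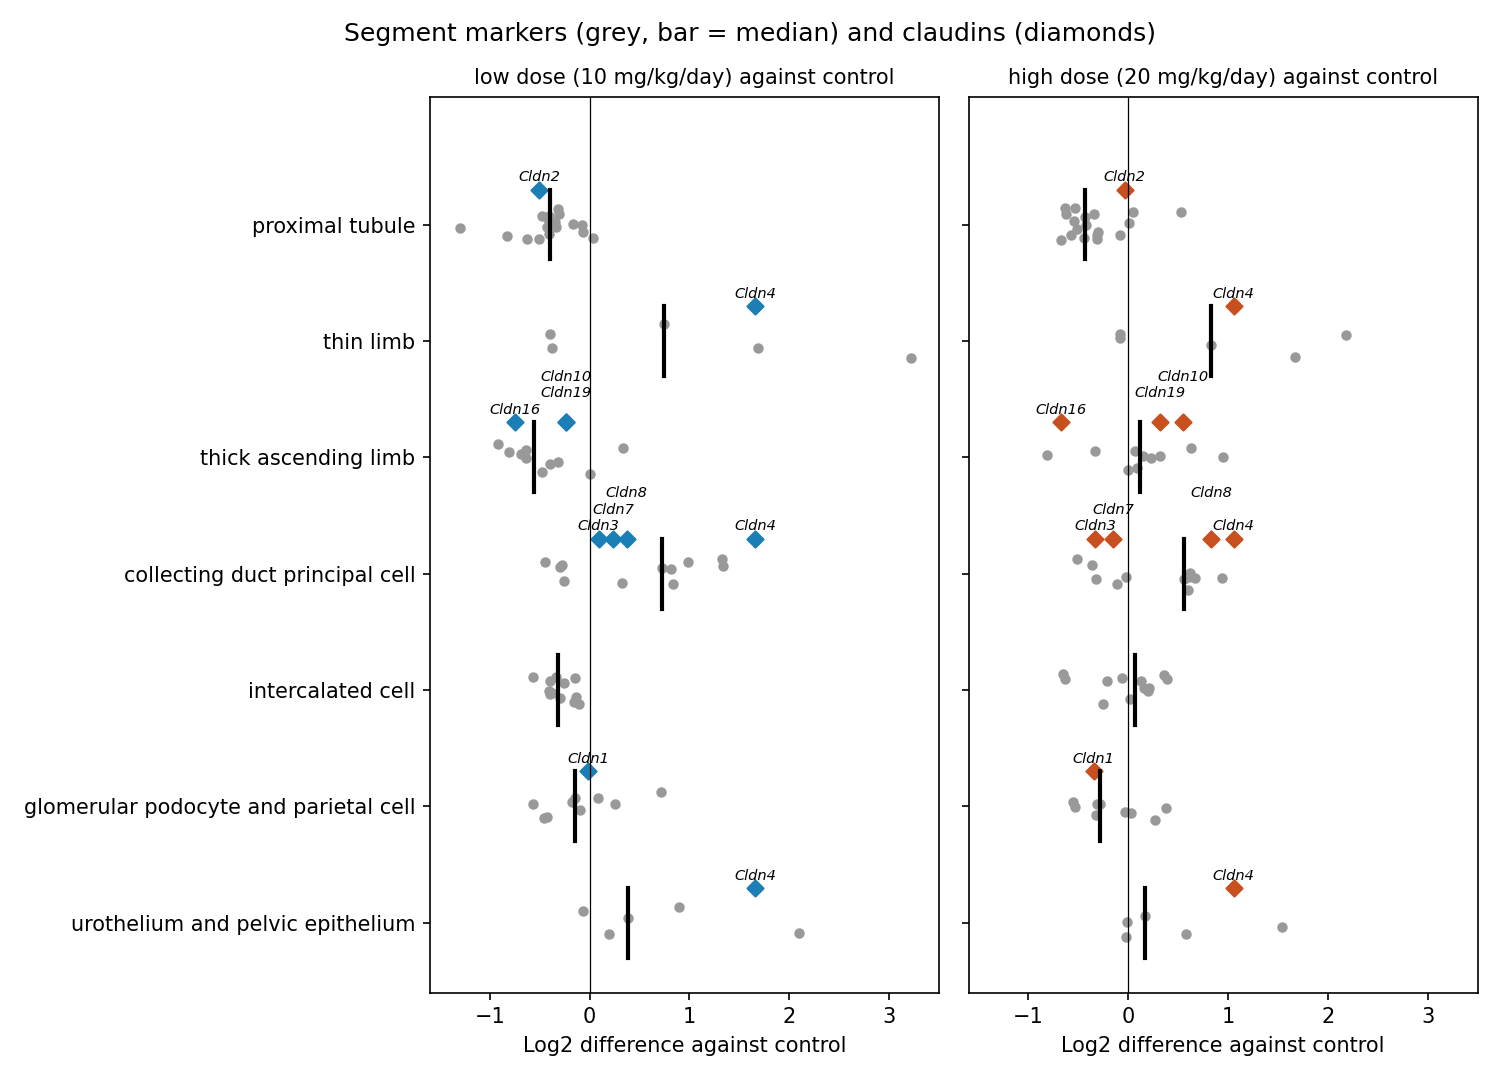
Log2 difference against control at the low dose (left) and the high dose (right) for the markers of each nephron segment or cell type above background on all 3 arrays (grey, bar at the median), with the claudins known from that segment as diamonds. In the thick ascending limb row, Cldn16 stays on the lower side in both panels while Cldn10, Cldn19 and the marker median change side, and in the collecting duct row Cldn4 lies at 1.66 and 1.06. With spike-in scaling all points move up by 0.28 and 0.34, and Cldn10 and Cldn19 then lie above 0 in both panels.

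Cldn2, which forms a pore for sodium and water in the proximal tubule, had intensities of 648 in control, 456 at the low dose and 632 at the high dose. A dimmer probe gave 71.4, 57.8 and 73.1 units. On both probes the low dose was lowest and the other arrays lay close together. The low dose was 1.42-fold below control (-0.51, SD 0.10), with -0.30 on the dimmer probe. The high dose stood within 1 technical SD of control (-0.04, SD 0.10), with 0.03 on the dimmer probe and 0.30 with spike-in scaling. High dose against low dose gave 0.47 (SD 0.07) and 0.34 on the 2 probes. The median of the proximal tubule markers was -0.40 (low dose) and -0.43 (high dose), so the high-dose value of Cldn2 was above the median of its segment. Slc7a13, an amino acid transporter, was the 1 marker of the list past 2-fold, at -1.30 for the low dose and -0.44 for the high dose.

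Cldn1, a sealing claudin of the parietal epithelium, was the only member printed on 10 spots. Over those spots the scaled intensity ran from 24.2 to 54.1 in control (median 39.1), from 30.8 to 48.2 at the low dose (median 41.9) and from 18.3 to 41.1 at the high dose (median 35.7). The 3 ranges overlapped. The means were 41.0, 40.7 and 32.3 in control, low and high dose, with a log2 difference of the means of -0.01 at the low dose and -0.35 at the high dose, or 0.27 and -0.01 with spike-in scaling. Spot by spot, the high dose was below control in 8 of 10 spots and below the low dose in 10 of 10, while the low dose was below control in 5 of 10. The SD over spots was 0.32 for the low dose against control, 0.34 for the high dose against control and 0.28 between the doses. A region of the control array with weak signal, near its corner, held 1 of the 10 spots. Spots of 1 array share its RNA and are not replicates of the rats.

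**Figure D4:**
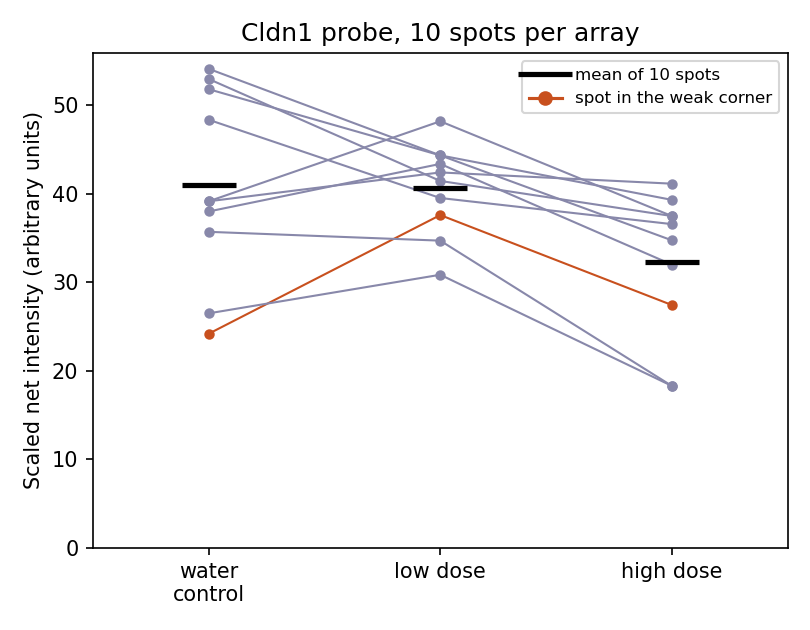
Scaled net intensity (arbitrary units) of the 10 spots of the Cldn1 probe on the water control, low-dose and high-dose arrays, with lines joining the same position on the arrays, black bars at the mean and the spot in the weak corner in colour. The spots lie between 24.2 and 54.1 in control, 30.8 and 48.2 at the low dose and 18.3 and 41.1 at the high dose, and all 10 lines go down between the low and the high dose.

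Cldn5, the endothelial claudin, had 55.3 units in control, 59.8 at the low dose and 56.7 at the high dose. Its control spot had a signal-to-noise ratio of 1.61, so no fold against control was measured. Over that spot's own value the low dose stood 1.08-fold and the high dose 1.03-fold higher. Both lay within the technical SD (0.17 and 0.18), and with normexp the log2 differences were -0.00 and -0.07. The doses differed by -0.08 (SD 0.14). Over 9 endothelial markers the median was -0.01 for the low dose and 0.02 for the high dose. No difference in Cldn5 was detectable at this signal.

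Of 18 other claudin and claudin-domain genes on the array, 5 stood above background on all arrays and 11 on none. Cldn9 had log2 differences of -0.16 at the low dose and -0.15 at the high dose, and Cldn12 of -0.26 and -0.22. Cldn23 gave -0.01 and 0.31, and Cldnd1 -0.09 and -0.47. Cldnd2, a claudin-domain gene, read 47.2 in control, 34.7 at the low dose and 66.7 at the high dose, which is 0.94 higher at the high than at the low dose. None of the 5 passed 2-fold, as was so for most measured genes. Cldn6 was above background at the high dose alone, where it was at least 1.24-fold above control, and Cldn34d was above background in control and at the high dose but not at the low dose. Cldn14, a blocker of the Cldn16 and Cldn19 path in mouse, was not above background on any array.

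The proteins that share the junction with claudins showed no difference of 2-fold. Over all measured genes, 2.48% were at least 2-fold higher and 0.739% lower at the low dose (background). At the high dose these shares were 0.848% and 0.151%, so finding none in lists of this size is near the background. Of all measured genes, 34.6% were above control at the low dose and 42.5% at the high dose. Most genes were thus below control, and counts leaning that way do not set the junction lists apart. Among 20 measured tight junction proteins other than claudins, 7 were above and 13 below control at the low dose (median -0.17), and 8 above and 12 below at the high dose (median -0.12). The highest at both doses was F11r, a junctional adhesion molecule, at 0.70 and 0.61, but its only spot lay in the weak region of the control array, and division by block medians gave 0.28 and 0.31. The lowest was Magi1, a scaffold, at the low dose (-0.77) and Ildr1, a protein of tricellular junctions, at the high dose (-0.43). Tjp1, the scaffold that binds the claudin tail, gave -0.07 and -0.26, and Ocln, occludin, -0.34 and 0.08. Of 12 measured adherens junction and desmosome genes, 3 were above and 9 below at the low dose (median -0.12), and 5 above and 7 below at the high dose (median -0.23), from Cdh2, a cadherin, at -0.82 to Nectin2 at 0.83 at the low dose. With spike-in scaling both medians of these lists were above 0, at 0.11 and 0.22 for the tight junction list and 0.16 and 0.11 for the adherens list.

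Genes known to act on claudins were also under 2-fold, near the background given for the junction lists. Of 19 measured, 6 were above and 13 below control at the low dose (median -0.18, or 0.10 with spike-in scaling), and 7 above and 12 below at the high dose (median -0.06, or 0.28 with spike-in scaling). Over all measured genes, 34.6% and 42.5% were above control at the low and the high dose. Wnk4, a kinase that phosphorylates claudins, had 51.8 units in control, 90.6 at the low dose and 96.0 at the high dose, with log2 differences of 0.81 and 0.89. Its only spot lay in the weak region of the control array, and with block medians the differences were 0.20 and 0.34. Casr, the calcium-sensing receptor of the thick ascending limb, had 731, 431 and 472 units in control, low and high dose, differences of -0.76 and -0.63. Sgk1, an aldosterone-induced kinase, stood at -0.11 at the low dose and -0.98 at the high dose, close to the 2-fold line. Among the 12 measured genes of divalent cation handling, none passed 2-fold (again near the background), and Atp2b1, a calcium pump, was the lowest at the high dose (-0.83). Trpv6, a calcium channel, was above background at the low dose alone, where it was at least 3.07-fold above control and at least 5.15-fold above the high dose.

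The genes whose pair of differences against control lay nearest to that of Cldn4, of 9655 compared, were Pparg (1.67 and 1.05, distance 0.02), a nuclear receptor of fat cells and of other tissues, Lgals1 (1.63 and 1.11, distance 0.06), a galectin, and Cpt1b (1.59 and 1.07, distance 0.07), a carnitine palmitoyltransferase of muscle and brown fat. Within a distance of 0.5 on the log2 scale lay 39 genes. The distance is Euclidean over the 2 differences, which share the control array.

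**Figure D5:**
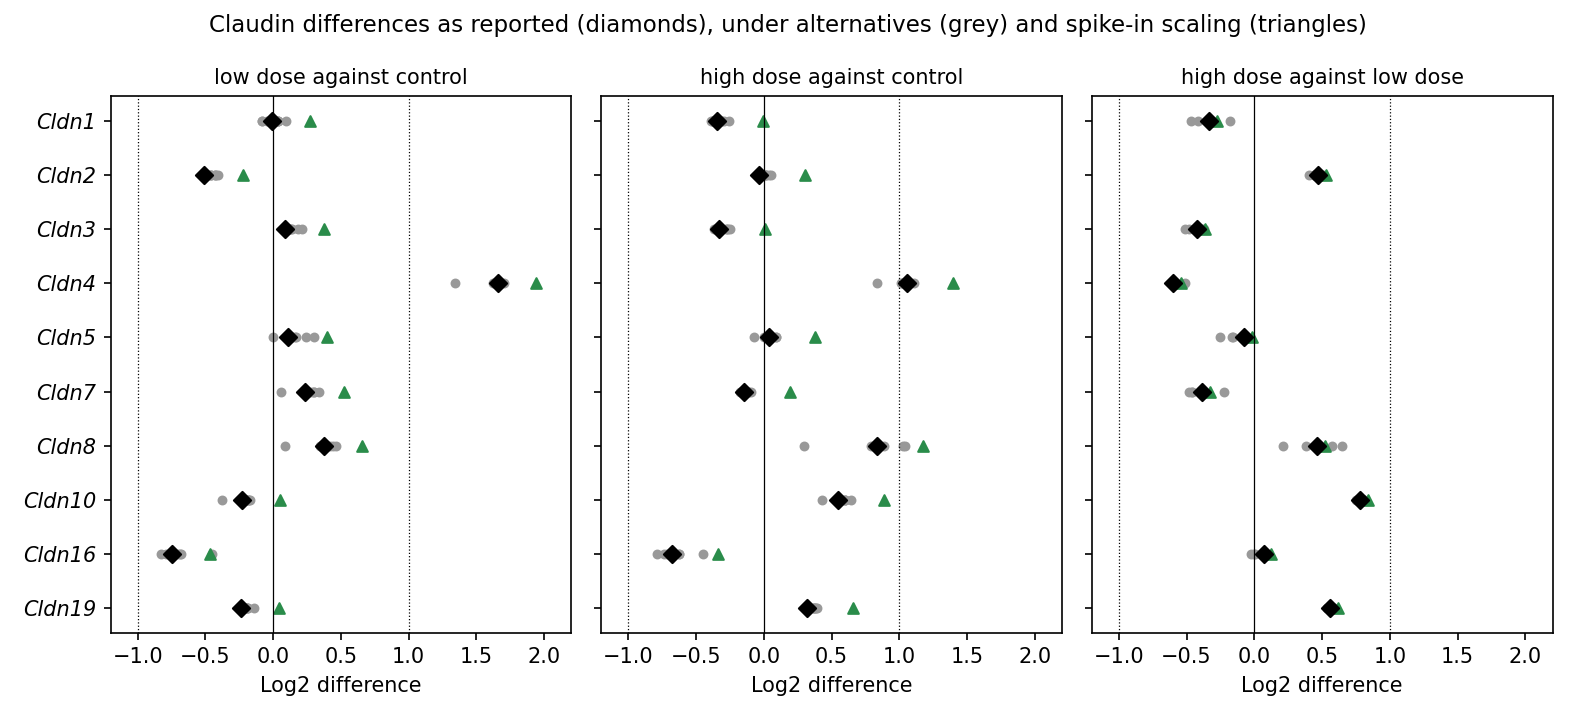
Log2 difference of each claudin in the 3 comparisons as reported (diamonds), under the alternative processings (grey points) and under spike-in scaling (triangles), with dotted lines at 2-fold. Cldn4 stays above 0 against control throughout (1.34 to 1.94 at the low dose, 0.83 to 1.40 at the high dose), and spike-in scaling carries the low-dose values of Cldn1, Cldn10 and Cldn19 and the high-dose values of Cldn2, Cldn3 and Cldn7 above 0.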

How the data were processed

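Kidney RNA of 3 groups was measured on Agilent rat oligonucleotide arrays, 1 array per group, grouped by the sample titles. Per the file headers, GenePix Pro 6.1.0.4 read the spots at 532 nm with the photomultiplier at 550, and the deposited intensity of a spot is its pixel mean less a background of 39 (control and high dose) or 40 (low dose). Agilent Feature Extraction appears in the submitters' processing notes, while the files have GenePix columns. One header, that of the high dose, gives a mouse design, but the spot annotation equals that of the other arrays. Per the file headers, each spot also has a flag and a signal-to-noise ratio (a deposited score) and the percent of its pixels that were saturated. A deposited table of log2 values by the authors, with a median of 4.77 on each array and a scaling that the sources used here do not give, served as an alternative.

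Control spots were left out, as were bright spots marked not found and non-uniform spots, with a pixel mean over 1.5-fold from the pixel median (137 spots in all in control, 131 at the low dose and 73 at the high dose). Net means were averaged per probe, scaled to an equal 75th percentile (factors 1.15, 0.964 and 0.914), floored at 1 and put on the log2 scale. The design had assumed the flag of Feature Extraction for signals above background, and the signal-to-noise limit took its place. Probes were named through RefSeq (GRCr8) by accession (18355), symbol (2758) or synonym (429), by the symbol in the files (1780), or not at all (7045). Of several probes for a gene, the one above background on more arrays was used, then the brightest. A 2-fold difference between probes above background on both arrays stood in for a test. Where only 1 array was above background, the fold is a lower bound, computed against the dim probe's own value or the dimmest probe above background there, whichever was higher. Such a bound leaves out the technical error of the spots, so a bound near 1 does not show a difference. The error of a claudin was the median SD over probes on 10 spots within 0.5 log2 units of its brightness (1390 such probes in all), or the claudin's own SD for Cldn1, divided by the square root of its spots.

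All members were named whatever their value, other claudins where above background on an array, and, of the lists, genes past 2-fold and ends of the range, though not every gene that meets this is printed. Tjp1, Ocln, Slc12a1, Scnn1g, Aqp1, Cryab and Cldn14 were picked after their values were seen. For the adipocyte, macrophage and matrix lists counts and sums are given in place of names. The members, lists and alternatives were chosen with earlier results of these data known. Averaging, scaling and the 2-fold limit were tested on simulated data with differences placed in bright probes only. Dim probes, the background limit, spot filters, bounds, naming and the technical SD were not covered by that test. Software was R 4.3.3 with limma 3.58.1, and Python 3.11.15 with numpy 2.4.6, pandas 2.3.3 and matplotlib 3.10.9.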

Additional observations from a re-analysis of the deposited data

How the results depend on the processing

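Of 12 alternatives, 2 were added after seeing the data (spike-in scaling and division of each spot by the median of its block of the array). The others were planned, but with earlier results of these data known. Cldn4 alone passed 2-fold at the low dose under all 12, and no member passed 2-fold between the doses under any. A signal-to-noise limit of 5 and a floor of 16 left all 30 member differences unchanged. The mean over a gene's probes altered only Cldn2 and Cldn19, the members with more than 1 probe. Those settings could not move Cldn4 and add nothing to its count. For the high dose against control, the count of 1 became 0 with normexp, where Cldn4 had a log2 difference of 0.83, and became 2, with Cldn8 added, in the authors' deposited log2 values (1.03), with the net median of pixels (1.04) and with spike-in scaling (1.17). Of 30 member differences, 21 kept their sign under every alternative. The exceptions were Cldn1, Cldn10 and Cldn19 at the low dose, Cldn2, Cldn3 and Cldn7 at the high dose, Cldn16 between the doses (-0.03 to 0.13), and Cldn5 against control at both doses, which had no measured value there. With normexp, Cldn8 was 0.08 at the low and 0.30 at the high dose, Cldn7 0.06 at the low dose, and Cldn4 1.34 at the low dose. The cause of these shifts was not tested, apart from the constant that spike-in scaling adds. No paired analysis was possible because each group had 1 array. Dim probes limit Cldn1, Cldn5, Cldn7 and Cldn8, whose signal-to-noise ratio in control was under 6. The Cldn16 probe was dim on the dose arrays, with 54.9 units at the low and 57.6 at the high dose. Its signal-to-noise ratio was 12.7 in control, 6.5 at the low dose and 10 at the high dose. With normexp its difference against control was -0.45 at each dose.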
